A study of Capra hircus with 6 samples.

Results

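The genes described are 10 genes of the Hippo pathway: the transcription factors *TEAD1*, *TEAD2*, *TEAD3* and *TEAD4*, their coactivators *YAP1* and *WWTR1*, the kinases *LATS1* and *LATS2*, and the upstream regulators *WWC1* and *NF2*. Their regions are all entries of a deposited table of differing chromatin regions, whatever their FDR, whose centre lies inside 1 of these genes or within 50000 bp of either of its ends. The members were thus selected on their listing, which rests on the measured p of the same comparison of periods, and the genes were chosen with values of that comparison known. This gave 80 of the 30714 listed regions, and no region was counted for more than 1 gene. All 10 genes were found in the RefSeq gene table of the goat assembly ARS1.2. Each had at least 3 listed regions, where all protein-coding genes had a median of 3 and 79.7% had 1 or more. The table compared ATAC-seq libraries, made by letting the Tn5 transposase insert adapters into DNA not wrapped on nucleosomes, from mammary epithelial cells of the goat (Capra hircus). There were 3 libraries of the dry period, between 1 lactation and the next, and 3 of the lactation period. The titles number the dry period libraries 1, 2 and 3 and the lactation libraries 1, 2 and 5. The labels name no breed, age, genotype or day within a period, and do not tie each library to a goat of its own. At most, then, p-values set the difference between the periods against the spread among these libraries, which may be technical. The test is not named in the sources used here, so whether that spread enters p is unknown.

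In the Hippo pathway the STE20-like kinases STK3 and STK4 activate LATS1 and LATS2, which phosphorylate YAP1 and WWTR1 (also called TAZ) and so keep them out of the nucleus. When they are not phosphorylated, YAP1 and WWTR1 enter the nucleus and bind TEAD proteins, which carry them to enhancers of genes of growth, adhesion and cytoskeleton. WWC1 (KIBRA) and NF2 (merlin) help bring LATS kinases to the membrane for activation. In the mammary gland the pathway is known for its part in luminal and basal cell identity and in the growth of the gland in pregnancy.

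Each listed region carries a ratio between the periods (its fold change, or fold), a p-value and an adjusted p, the false discovery rate (FDR), all for the whole comparison, with no value per library. Read depth is unknown. The region names form 2 sets, written set 1 (22884 entries) and set 2 (7830 entries), and every fold in both is above 1. A set was read as the regions with more cuts in 1 period than in the other. No source used here ties a set to a period, so every direction is given by set. A region is said to have passed when the authors' FDR was under 0.05, which 27.8% of all listed regions did (34.2% of set 1 and 9.23% of set 2). The highest p that passed was 6.21e-05 in set 1 and 5.63e-06 in set 2 per the authors' deposited table, so a set 2 region needed a smaller p. Among marker genes of cell types, a passing region lay in the window of 10 of 10 luminal, 4 of 8 basal and myoepithelial, 2 of 7 fibroblast, 5 of 6 endothelial, 3 of 7 immune and 3 of 4 matched adipocyte genes, against 51.4% of all 19063 protein-coding genes on numbered chromosomes. A passing set 2 region lay at 3 of the 6 endothelial genes and at 1 luminal, 1 immune and 1 adipocyte gene. None lay at the basal and myoepithelial or fibroblast genes, and over all protein-coding genes 5.06% had one. A table of differences holds no level of accessibility, so the labelled cell type could not be checked with it. The part of other cell types in the values below was not tested.

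Accessibility differed between the periods in the windows of 9 of the 10 genes, and every passing region was in set 1. Of the 80 regions, 36 (45.0%) passed, all 36 among the 68 regions of set 1 (52.9% of them), and 0 of the 12 regions of set 2 passed, although all 12 had an unadjusted p under 0.001 per the authors' deposited table, whose test is not named in the sources used here. With 3 counts taken as the bound for a count of 0, the set 2 share of the 36 could be up to 8.33%. No confidence level belongs to that bound. It treats regions as independent, although 21 of the 36 lay at *TEAD1* and *WWC1*. Among all passing regions 8.46% were in set 2, and the bound cannot decide whether the 0 here differs from that share. The stricter FDR of 0.01 kept 14 of the 80, beside 13.1% of all listed regions. *TEAD1* and *WWC1* held 21 of the 36 passing regions. *LATS2* had none. Because the genes were chosen with these values known, and the table lists only differences, these counts are a description and were not tested. Over all protein-coding genes 48.9% had a passing set 1 region in the same window and 5.06% a passing set 2 region. The windows are unlike, since those of the 10 genes span 114.3 to 369.5 kb and the median window of all genes is 117.8 kb, and longer windows hold more regions.

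**Figure D1:**
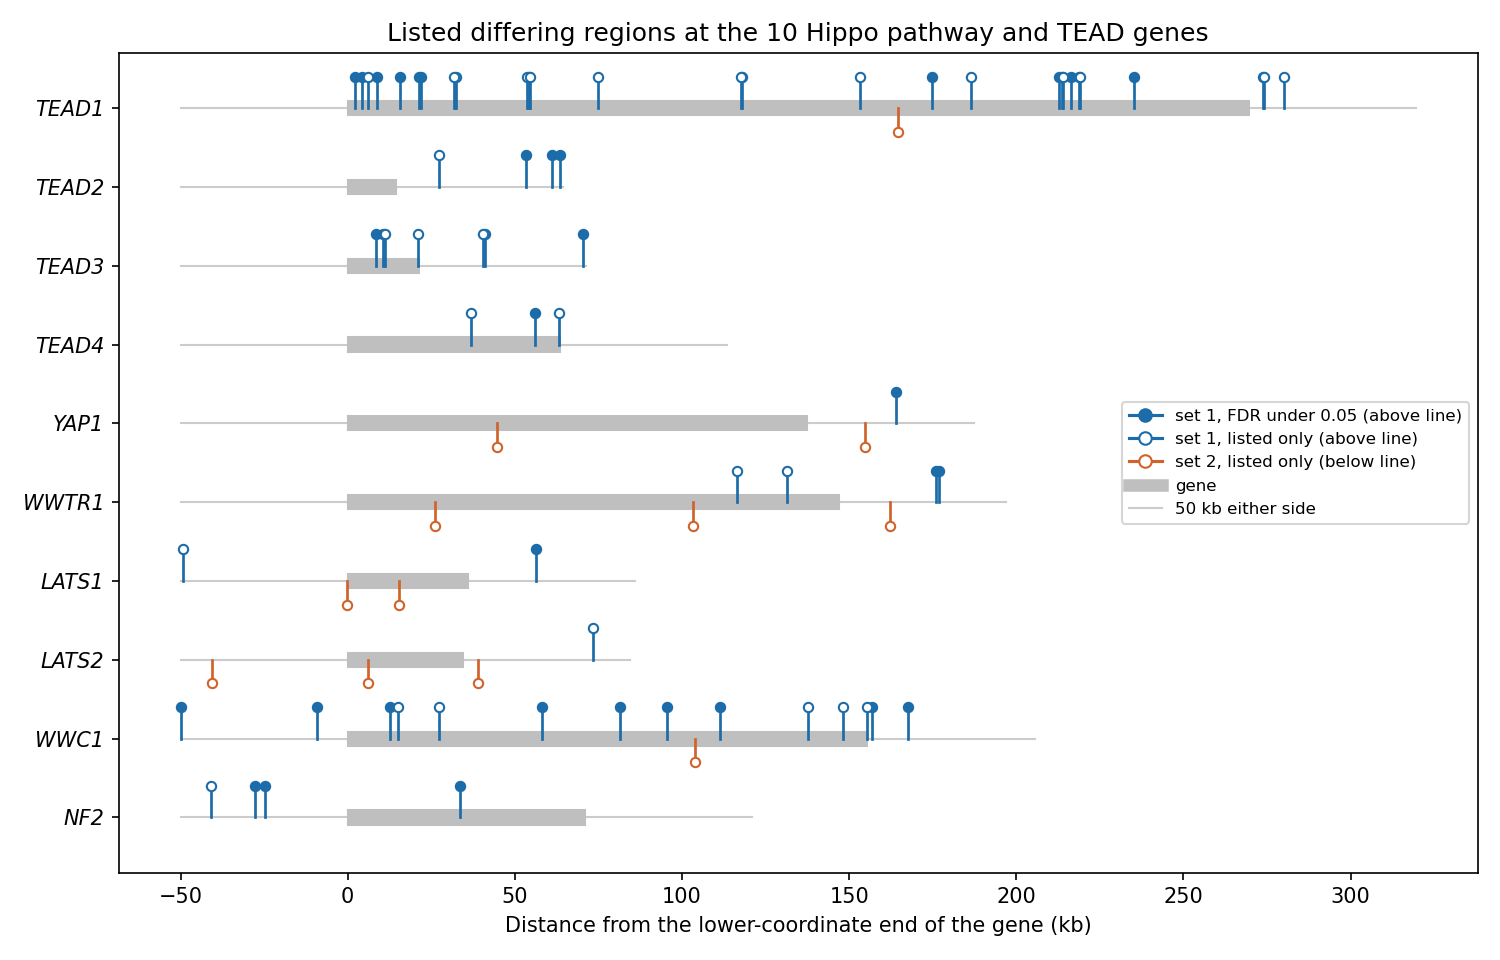
Position of the 80 listed regions, as distance in kb from the end of each gene with the lower coordinate (horizontal axis), for the 10 genes (rows). Grey bars are the genes, thin lines the 50 kb on either side, filled points regions with an FDR under 0.05 and open points those listed only, with set 1 above and set 2 below the line. *TEAD1* and *WWC1* are covered by set 1 points along the gene, while 10 of the 12 set 2 points lie at *YAP1*, *WWTR1*, *LATS1* and *LATS2*.

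The TEAD proteins bind DNA through a TEA domain and need a coactivator to activate genes. Among the genes of the family the number of listed regions was 29 for *TEAD1*, 4 for *TEAD2*, 7 for *TEAD3* and 3 for *TEAD4*. Of these 43 regions, 42 were in set 1 and 20 passed.

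*TEAD1* had 12 passing regions, 11 of them inside the gene, which spans 269495 bp on chromosome 15 in ARS1.2. Only 29 of the 19063 protein-coding genes, *TEAD1* among them, had 29 or more listed regions in their window, and 48 had 12 or more passing ones. Per 100 kb of window *TEAD1* had 7.85 listed regions, against a median of 1.87 over all protein-coding genes (interquartile range 0.642 to 4.22), and 90.9% of genes had a lower density. It had 3.25 passing regions per 100 kb, against a median of 0.329. No other protein-coding gene lay nearer to any of the 29 regions. The nearest ones were *PARVA* on the lower-coordinate side and *RASSF10* on the higher side.

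In the authors' deposited table the lowest p at *TEAD1* belonged to a region at 42476301 to 42476800 on chromosome 15, 94778 bp inside the gene, with a fold of 2.51 (p = 1.83e-06, FDR = 0.00453). Next was a region at 42303901 to 42304200, which lies 2217 bp inside the lower-coordinate end and had a fold of 2.60 per the authors' deposited table (FDR = 0.00578). A region at 42323601 to 42323900, 21917 bp from the same end, had a fold of 1.49 per the authors' deposited table (FDR = 0.00991). The 12 passing regions thus included small differences as well as larger ones. Their fold changes ran from 1.49 to 5.12 per the authors' deposited table, with a median of 2.46. Per the authors' deposited table the fold of 5.12 belonged to the passing region outside the gene, 4223 bp beyond its higher-coordinate end (42575401 to 42575700, FDR = 0.0263). FDR values of 0.0462 and 0.0488 per the authors' deposited table placed 2 of the 12 regions close to the limit.

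With regions of *TEAD1* joined where centres were at most 5000 bp apart, 21 of the 29 fell into 7 groups, each wholly in set 1. Over the 80 regions 45.0%, and over all listed regions on numbered chromosomes 37.9%, had a neighbour of the same set at that distance. The group at the lower-coordinate end held 4 regions, of which 3 passed, within 6.9 kb. Its fold changes ran from 1.46 to 2.61 per the authors' deposited table. A second group deep in the gene held 6 regions within 6.6 kb (42514501 to 42521100), of which 2 passed. Counted in stretches of at most 25 kb between centres, 7 regions, 6 of them passing, lay between 42303901 and 42323900. Of all listed regions on numbered chromosomes, 7.8% lay in a stretch with at least 7, and the densest stretch of the table held 17. The single set 2 region of *TEAD1* (42466401 to 42466700) had a fold of 2.47 and an FDR of 0.306 per the authors' deposited table. It lies inside the gene, 10000 bp from the passing set 1 region with the lowest p, so both sets were listed in the same part of the gene.

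At *TEAD3* the passing regions lay both in the gene and beyond it, on chromosome 23. A region inside the gene at 39272701 to 39273300 had a fold of 2.45 per the authors' deposited table (p = 6.37e-07, FDR = 0.00216), and a second one inside it at 39270701 to 39271000 had 1.68 (FDR = 0.0223). These 2 regions lie 10652 and 8503 bp from the nearest end, with no other gene nearer. A region at 39303301 to 39303600, with a fold of 2.77 per the authors' deposited table (FDR = 0.00533), lies 19799 bp outside *TEAD3* and 1008 bp from *FANCE*, a gene of DNA crosslink repair. The remaining passing region is inside *PPARD*, a nuclear receptor gene, 48949 bp away, with a fold of 2.07 per the authors' deposited table (FDR = 0.0183). A listed region 252 bp from an end of *TEAD3*, at 39283301 to 39283500, did not pass (fold change of 3.06, FDR = 0.243 per the authors' deposited table). *TEAD3* had 5.77 listed regions per 100 kb, more than 83.8% of genes.

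The regions counted for *TEAD2* all lie closer to other genes. The gene is 14301 bp long on chromosome 18, and 0 of its 4 listed regions lie inside it. The lowest p per the authors' deposited table, 8.84e-07, belonged to a region at 56891001 to 56891300 with a fold of 2.66 (FDR = 0.00274), which is 39014 bp from *TEAD2* and 835 bp from *CCDC155*. The other passing regions lie in *SLC17A7*, a vesicular glutamate transporter gene (fold change of 2.05 per the authors' deposited table, FDR = 0.00948), and in *GFY* (1.97, FDR = 0.0103). They are 49114 and 46764 bp from *TEAD2*. The values at *TEAD2* therefore describe its neighbourhood more than the gene.

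*TEAD4* on chromosome 5 had 1 passing region, inside the gene at 105751901 to 105752200, 7290 bp from its higher-coordinate end. Its fold change was 2.43 per the authors' deposited table (p = 1.89e-05, FDR = 0.0228). A region 140 bp inside that end (105759101 to 105759300) had a fold of 2.62 but an FDR of 0.267 per the authors' deposited table. With 1.84 listed regions per 100 kb, *TEAD4* was close to the median gene.

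**Figure D2:**
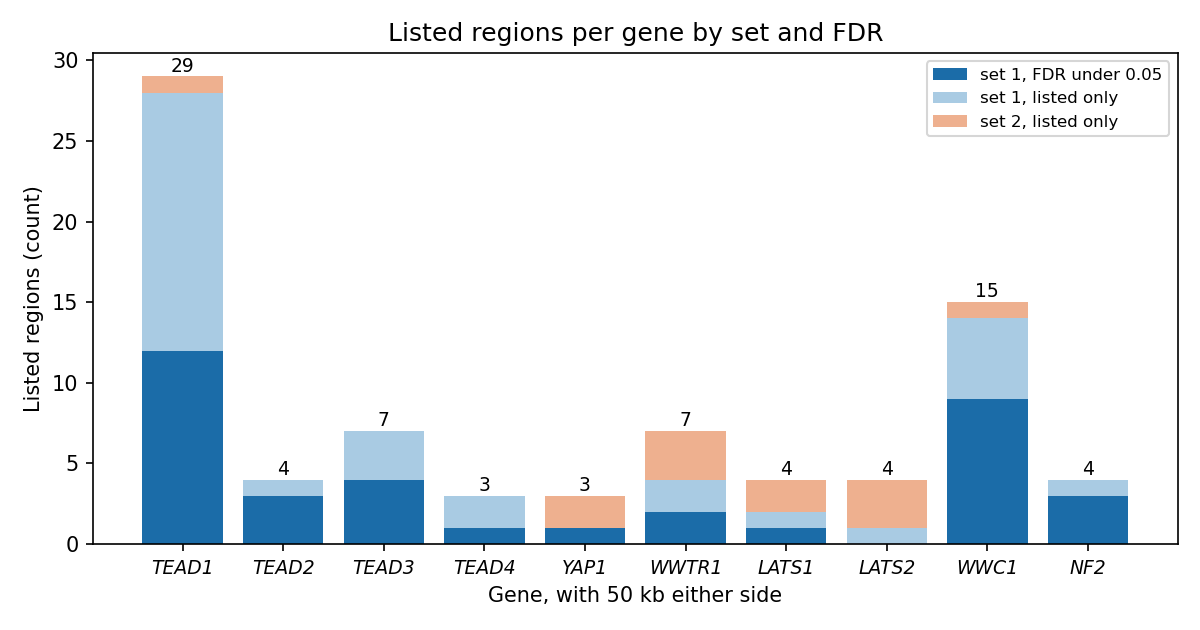
Number of listed regions (vertical axis) in the window of each gene (horizontal axis), split into set 1 with an FDR under 0.05, set 1 listed only and set 2 listed only. *TEAD1* with 29 and *WWC1* with 15 regions stand above the other 8 genes, which had 3 to 7.

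WWC1 is a scaffold with WW domains that binds NF2 and the LATS kinases. Of the 10 genes *WWC1* had the second largest number of regions, 15, of which 14 were in set 1 and 9 passed. Of all genes, 136 including *WWC1* had 9 or more passing regions. Per 100 kb it had 3.52 passing regions, close to the 3.25 of *TEAD1* and the 3.30 of *TEAD3*. The region with the lowest p, on chromosome 7 at 30231601 to 30232700, is 1100 bp wide and lies 1292 bp beyond the higher-coordinate end of the gene. Its fold change was 1.85 per the authors' deposited table (p = 8.71e-09, FDR = 8.94e-05). Only 249 of the listed regions (0.811%) are 1000 bp or wider, and this is 1 of 2 such regions among the 80. Within the gene a region at 30186401 to 30186900 had a fold of 3.36 per the authors' deposited table (FDR = 0.000284). A region 12092 bp outside, at 30242801 to 30243100, had 3.24 per the authors' deposited table (FDR = 0.00219).

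The other passing regions of *WWC1* had fold changes between 1.40 and 4.82 per the authors' deposited table, with 4 of these 6 regions inside the gene. The remaining 2 lie on the lower-coordinate side and nearer to other genes, 1 of them 365 bp from *RARS*, the cytosolic arginyl-tRNA synthetase gene. That with the fold change of 4.82 per the authors' deposited table lies 49776 bp outside *WWC1*, the farthest of the 80. A region 159 bp inside the higher-coordinate end had a fold of 2.0 and an FDR of 0.0599 per the authors' deposited table, just over the limit. The largest set 1 fold change among the 80 regions was also at *WWC1*, 7.58 per the authors' deposited table, with an FDR of 0.162. The single set 2 region inside the gene (30179301 to 30179500, fold change of 4.51, FDR = 0.501 per the authors' deposited table) lies 7250 bp from the passing set 1 region at 30186401.

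NF2 is a membrane-linked tumour suppressor of the FERM family. *NF2* on chromosome 17 had 4 listed regions, all in set 1, of which 3 passed. The passing region inside the gene, at 2459001 to 2459400, is 33684 bp from the nearest end and had a fold of 2.43 per the authors' deposited table (p = 1.54e-05, FDR = 0.0198). Both other passing regions lie within *CABP7*, a calcium-binding protein gene, at 27767 and 24667 bp from *NF2*. They had fold changes of 2.11 (FDR = 0.0227) and 5.23 (FDR = 0.0316) per the authors' deposited table, the latter the highest of the 36 passing regions. Only 1 of the 4 regions therefore lay in *NF2* itself.

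YAP1 and WWTR1 are paralogous coactivators without a DNA-binding domain. Together the genes had 10 listed regions, 5 in each set, of which 3 passed, and none of the 3 lies inside either gene. The lowest p of all 80 regions was at *WWTR1*: a region of 1100 bp on chromosome 1 at 118238801 to 118239900 had a fold of 2.22 per the authors' deposited table (p = 1.59e-11, FDR = 6e-07), the 186th lowest p of set 1. It lies 30092 bp outside *WWTR1* and within *TM4SF4*, a tetraspanin-like membrane protein gene. A second passing region next to it, at 118238401 to 118238700, had a fold of 1.53 per the authors' deposited table (FDR = 0.0102). The 4 listed regions inside *WWTR1* did not pass. In set 1 these had fold changes of 3.11 (FDR = 0.0691) and 1.54 (FDR = 0.110) per the authors' deposited table. In set 2 they had 3.73 (118165601 to 118166100, FDR = 0.0753) and 4.01 (118088101 to 118088700, FDR = 0.181) per the authors' deposited table. The gene body of *WWTR1* thus had regions of both sets, all short of the limit.

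At *YAP1* on chromosome 15 the passing region, at 75980501 to 75980700, is 26623 bp beyond the higher-coordinate end, with no protein-coding gene nearer. Its fold change was 2.21 per the authors' deposited table (p = 4.36e-05, FDR = 0.0395). A set 2 region on the same side at 75970901 to 75971300, 9500 bp away from it, had a fold of 8.23 but an FDR of 0.354 per the authors' deposited table. The other set 2 region, inside the gene, had 5.90 (FDR = 0.580 per the authors' deposited table). *YAP1* had the lowest density of the 10 genes, 1.26 listed regions per 100 kb.

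LATS1 and LATS2 are the kinases that phosphorylate YAP1 and WWTR1. Of their 8 listed regions 5 were in set 2 and 1 passed. That region, of set 1 and counted for *LATS1* on chromosome 9, lies within *PCMT1*, a protein repair methyltransferase gene, 20256 bp away (73869401 to 73869900, fold change of 2.36, p = 1.01e-06, FDR = 0.00300 per the authors' deposited table). A set 2 region 208 bp outside the lower-coordinate end of *LATS1* (73813101 to 73813400) had a fold of 4.63 and an FDR of 0.540 per the authors' deposited table. Inside the gene a set 2 region had 4.16 (FDR = 0.565 per the authors' deposited table).

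*LATS2* on chromosome 12 had no passing region but the largest fold change of the 80. A set 2 region of 900 bp inside the gene at 51069501 to 51070400, 6211 bp from the lower-coordinate end, had a fold of 13.3 per the authors' deposited table (p = 1.75e-05, FDR = 0.102). Of the 7830 set 2 regions 60, this one included, had a fold change as large. Its p is below 6.21e-05, the highest p that passed in set 1, and above 5.63e-06, the highest that passed in set 2. A further set 2 region at 51022901 to 51023200, within *XPO4*, had 4.58 (p = 3.67e-05, FDR = 0.160 per the authors' deposited table). The only set 1 region, within *SAP18* and 38932 bp away, had 2.28 (FDR = 0.216 per the authors' deposited table). The nearest set 1 region of the table lay 34500 bp or more from each of the 3 set 2 regions of *LATS2*.

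Set 2 regions were spread unevenly over the 10 genes. Of the 12, 10 were at *YAP1*, *WWTR1*, *LATS1* and *LATS2*, which had 18 listed regions in all, and 2 among the 62 listed regions of the other 6 genes. This grouping of genes was made after the values were seen. Of all protein-coding genes 37.6% had a listed set 2 region in their window, against 6 of the 10 here. Over the 80 regions the set 2 share was 15.0% (8.79% to 24.4% by a 95% Wilson interval, for counting error only), beside 25.5% of all listed regions. The interval treats regions as independent, although 44 of the 80 lay at *TEAD1* and *WWC1*. It therefore cannot decide whether the 2 shares differ. The share of 15.0% rested on the 2 genes with the most regions. It was 21.6% of 51 regions without *TEAD1* and 27.8% of 36 regions without *TEAD1* and *WWC1*. At a single p limit of 6.21e-05 for both sets, 4 of 40 regions (10.0%) would be in set 2, 2 at *WWTR1* and 2 at *LATS2*. Over all listed regions, that limit was met by 1831 of set 2 beside 7820 of set 1, which are the counts to read against 4 of 40. Counted within set 2, the limit was met by 4 of the 12 regions here and by 23.4% of all 7830.

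The median fold was larger in set 2, as it was in the whole table. Among the 80 regions their median was 2.31 in set 1 (1.36 to 7.58) and 4.34 in set 2 (1.93 to 13.3) per the authors' deposited table. The medians of all listed regions were 2.39 and 3.59 per the authors' deposited table. The 36 passing regions had a median fold change of 2.31, beside 2.32 for all passing set 1 regions of the authors' deposited table. Of the 36, 25 (69.4%) had a fold of at least 2, and 66.9% of all passing set 1 regions did. In size the differences at these genes thus lay close to those of set 1 as a whole.

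**Figure D3:**
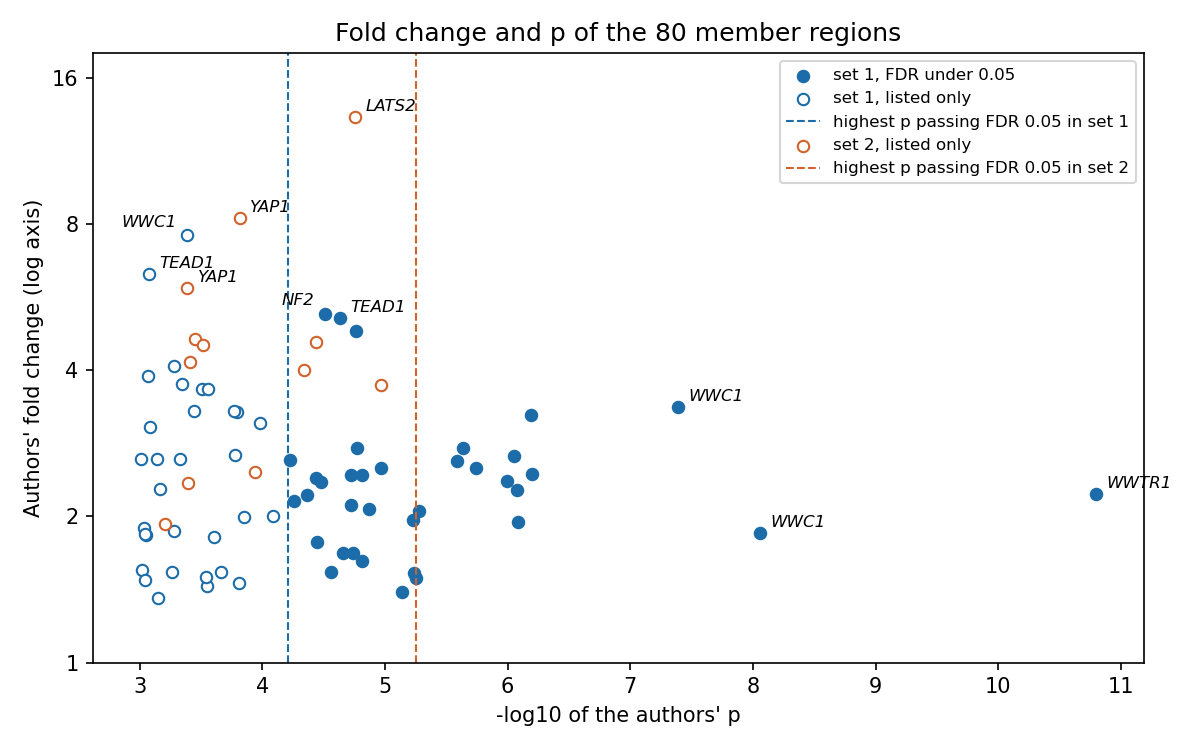
Fold change (vertical axis, log scale) against -log10 of the authors' p (horizontal axis) for the 80 regions, by set and FDR. Dashed lines mark the highest p that passed an FDR of 0.05, 6.21e-05 in set 1 and 5.63e-06 in set 2. The set 2 region of *LATS2* at 13.3 lies between the lines, and the *WWTR1* window holds the lowest p at a fold of 2.22.

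Within 3000 bp of an end of their gene lay 6 of the 80 regions and 2 of the 36 that passed. Of the 10 genes 5 (*TEAD1*, *TEAD3*, *TEAD4*, *LATS1* and *WWC1*) had a listed region centred within 3000 bp of an end, and 2 (*TEAD1* and *WWC1*) had one that passed. Over all protein-coding genes these shares were 36.4% and 14.4%. The gene table gives no strand, so which end holds the transcription start was not used here, and exons and introns were not separated. Inside the genes lay 52 of the 80 regions (65.0%). Of all listed regions on numbered chromosomes 53.3% lay inside any protein-coding gene. These shares are unlike, since the first leaves out regions inside a neighbouring gene. The 80 regions were also chosen for lying in or near a gene. For 19 of the 80, and 12 of the 36 that passed, another protein-coding gene was nearer. Without these, 24 passing regions were left, 12 at *TEAD1*, 7 at *WWC1*, 2 at *TEAD3* and 1 each at *TEAD4*, *YAP1* and *NF2*.

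**Figure D4:**
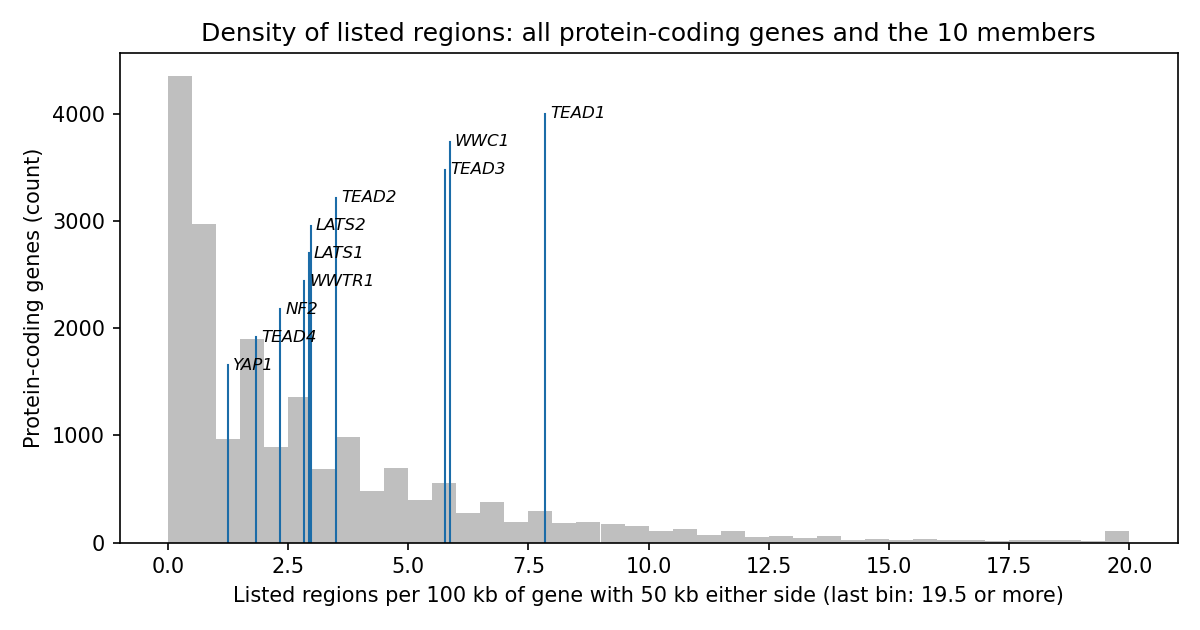
Number of protein-coding genes (vertical axis) by listed regions per 100 kb of window (horizontal axis), for 19063 genes in grey, with the 10 genes as lines whose heights only separate the names. *TEAD1* (7.85), *WWC1* (5.87) and *TEAD3* (5.77) lie to the right of the third quartile of 4.22, while *TEAD4* (1.84) lies just below the median of 1.87 and *YAP1* (1.26) farther below it.

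At the limit of 50000 bp the choice of window mattered for single regions. The *WWC1* region at 49776 bp was the last inside. Just outside, 50064 bp from *TEAD2*, lay a set 1 region at 56901701 to 56902700 with a fold of 1.76 per the authors' deposited table (FDR = 9.64e-09). The next regions outside were counted from *TEAD4*, at 50961 bp (fold change of 3.83, FDR = 0.0890 per the authors' deposited table), and *LATS2*, at 51082 bp (4.40, FDR = 0.00727 per the authors' deposited table). The second limit of the choice is the table's own p of 0.001. The highest p among the 80 was 0.000981 per the authors' deposited table, at the end of *TEAD4*, and regions above that limit are not listed.

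Of 27 other placed genes of the kinase module and its upstream regulators, 19 had a passing region in their window, beside 51.4% of all protein-coding genes. All 19 had a set 1 region and 2 also a set 2 region. Over all protein-coding genes 48.9% had a passing set 1 region and 5.06% a passing set 2 region. *MAP4K4*, a kinase that phosphorylates LATS1 and LATS2, had 4 passing set 1 regions, and the one with the lowest p lies 31466 bp outside the gene, with a fold of 2.71 per the authors' deposited table (FDR = 6.04e-07). *PTPN14*, a phosphatase that binds YAP1, had a region inside the gene at a fold of 2.46 per the authors' deposited table (FDR = 1.37e-05). For *MAP4K5* the region inside the gene had 2.48 per the authors' deposited table (FDR = 5.22e-05). Both STE20-like kinase genes at the head of the cascade lacked a passing region, with 1 listed region at *STK3* and 2 at *STK4*. These were named after their values were seen. Set 2 passed at *AMOTL1* and *AMOTL2*, which encode angiomotin-like proteins that hold YAP1 outside the nucleus, and each also had a passing set 1 region.

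Among 9 genes for inhibitors of the kinases, 5 (55.6%) had a passing region, close to the 51.4% of all protein-coding genes. By set, 4 of the 9 had a set 1 region and 1 a set 2 region, beside 48.9% and 5.06% of all protein-coding genes. Among those of set 1 were *RASSF6* (fold change of 2.38, 46401 bp outside the gene), *LIMD1* (2.32, inside) and *AJUBA* (2.01, inside) per the authors' deposited table. LIMD1 and AJUBA are LIM proteins that bind LATS kinases at junctions. The set 2 gene was *STRN*, a subunit of the STRIPAK phosphatase complex, at 3.25 per the authors' deposited table (FDR = 0.0446). Of 3 placed VGLL genes, whose products are TEAD-binding cofactors, *VGLL2* had a region 2060 bp outside the gene (3.21 per the authors' deposited table, FDR = 0.000101). *VGLL3* had one inside (2.62, FDR = 0.00802 per the authors' deposited table), and *VGLL4* had listed regions only.

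Of 22 target genes of YAP1 and WWTR1, 17 (77.3%) had a passing region, beside 51.4% of all protein-coding genes. By set, 16 had a set 1 region and 2 a set 2 region, beside 48.9% and 5.06% of all protein-coding genes. The lowest p values belonged to *IGFBP3*, which binds insulin-like growth factors (fold change of 3.10, FDR = 6.97e-09), *ARHGEF17* (1.85, FDR = 7.24e-06), *ASAP1* (2.66, FDR = 1.14e-05) and *PTPN14* per the authors' deposited table. The regions of *IGFBP3*, *ARHGEF17* and *ASAP1* lie outside the genes, 14987, 16561 and 13449 bp away. The widely used target genes *CCN1* and *CCN2*, named here after their values were seen, had 10 and 1 passing regions, all in set 1. The leading ones lie 28844 bp and 48350 bp outside, with fold changes of 2.90 and 3.98 per the authors' deposited table. *NT5E*, an ectonucleotidase gene, had 0 listed regions in set 1 and a passing set 2 region inside the gene (3.51, FDR = 0.0470 per the authors' deposited table). *RBMS3* had 7 listed regions, all in set 2, and none passed. *PTPN14*, *AMOTL2* and *NUAK2* stand in both this list and the upstream list, and *LATS2* is 1 of the 10 genes.

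**Figure D5:**
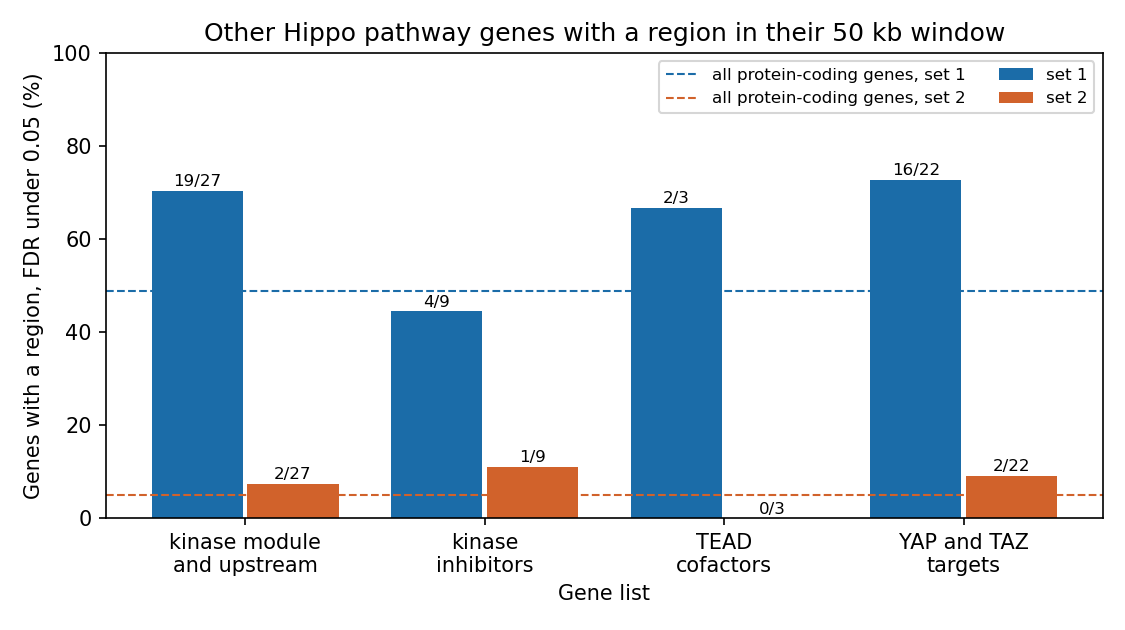
Share of placed genes in 4 lists (horizontal axis) with a region at an FDR under 0.05 in their window, in percent (vertical axis), for set 1 and set 2, with counts above the bars and the shares over all protein-coding genes as dashed lines (48.9% and 5.06%). Set 1 bars range from 4 of 9 inhibitor genes to 16 of 22 target genes, and set 2 bars from 0 of 3 to 2 genes per list.

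The median number of passing regions per gene was 1 in each of the 4 lists, and it was 1 over all protein-coding genes. A passing region was present in 70.4% of the kinase module and upstream genes, 55.6% of the inhibitor genes, 66.7% of the cofactor genes and 77.3% of the target genes, beside 51.4% of all protein-coding genes. Gene length was not matched in these shares, and no test was made of them. Whether another gene lay nearer to the regions of these lists was not checked.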

How the data were processed

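ATAC-seq was made from 50000 mammary epithelial cells per library, with 3 dry period and 3 lactation libraries, per the labels. Bowtie2 2.2.5 and MACS2 appear in the submitters' processing notes. The differential caller, genome build, Tn5 shift and duplicate removal were not given in the sources used here. The authors deposited 1 table of regions: fold change is a linear ratio, p-value and Benjamini-Hochberg FDR (a q-value) are their own, and the deposited signal value is a score proportional to the fold change (32.0 times in set 1, 20.4 in set 2), so it was not used. The deposited width is another unit, bp. Depth is unknown.

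Region positions are the authors', with 1 added to each deposited start so that positions are counted from 1. Region centres were compared with RefSeq ARS1.2 gene positions, used for names, lengths and neighbours only. The share of centres no more than 1000 bp from a gene end was higher with the same chromosome's genes than with another's, and higher than after a shift by 100000 bp, on 29 of 29 chromosomes. Of the genes in the 4 pathway lists and 6 marker lists, *WWC3*, *SCRIB*, *AMOT*, *VGLL1* and *FABP4* were not placed on a numbered chromosome and were not used here. *CCN1* and *CCN2* were matched as *CYR61* and *CTGF*. A run on simulated regions checked only that the code applied the distance rule, not that the positions or genes are right. Python 3.11.15, pandas 2.3.3 and scipy 1.17.1 were used.

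Members and lists were chosen with earlier results of these data known. Named were all 10 genes, up to 3 passing regions per gene by p (others were added after their values were seen), and up to 4 genes per pathway list by p, of which 2 are not reported here. The table holds no value per library, so no test across libraries was made. No sequence was used here, so the planned promoter description was left out.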

Additional observations from a re-analysis of the deposited data

How the results depend on the processing

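No paired analysis was possible because the table holds no value per library; leaving out single libraries was not run for the same reason. The 80 listed regions became 52 inside the genes only, 51 without *TEAD1* and 36 without *TEAD1* and *WWC1*. The 36 passing regions became 23 with a window of 10000 bp, 20 inside the genes only, 14 at an FDR under 0.01, 17 at p under 1e-05 and 15 without *TEAD1* and *WWC1*. The set 2 share of listed regions moved from 15.0% to 27.8% without *TEAD1* and *WWC1*, and that of passing regions from 0 to 10.0% at the p limit of set 1 for both sets. Leaving out genes and the shared p limit were chosen after seeing the data. With a window of 10000 bp, 3 of 9 inhibitor genes and 11 of 22 target genes had a passing region, down from 5 and 17. The share over all protein-coding genes is not given for that window, so these counts cannot be read against it. Of 52 alternatives, 40 stayed within 1.5 times the count, or within the counting interval of the share. That interval treats regions as independent. Settings that only narrowed the 36 passing regions could not move their set 2 share of 0, so their outcome was fixed. The 40 are thus no measure of how firm that share is. At an FDR under 0.10 there was 1 set 2 region, at *WWTR1*. Read depth per library and per region is unknown, so the depth behind each fold change is too.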
